A study of Mus musculus with 10 samples.

Results

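The genes followed here in male mouse embryonic stem cells (mESCs) mark the formative and primed states of pluripotency and are Hesx1, Otx2, Fgf5, Pou3f1, Sox3, Zic2, Nodal, Lefty1 and Lefty2. They were taken by name from the deposited expression table, where each matched 1 row, and they are 9 of its 25965 features. The cells were C57/Bl6 mESCs of 2 independent lines, both derived with the Keniry2022 method and both kept throughout in 2i/LIF medium, in which inhibitors of MEK and GSK3 together with the cytokine LIF hold mESCs in the naive state. Each line was divided at the start of the experiment (p0) and grown for 10 and 20 passages (p10 and p20) either under Keniry2022 conditions (suspension, daily passage; New or Off in the labels) or under Mulas2019 conditions (gelatin, less frequent passage; Old or On in the labels). Each of the 5 groups (p0, p10 Keniry2022, p20 Keniry2022, p10 Mulas2019 and p20 Mulas2019) had 2 libraries, 1 of each line, so p10 and p20 libraries of a method are repeated samples of the same lines. According to the study, p20 Keniry2022 and p10 Mulas2019 cells had spent about the same number of days in culture.

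Naive cells resemble the epiblast of the blastocyst before implantation. As they leave that state they pass through a formative phase, in which transcription factors such as Otx2, Pou3f1 and Zic2 open new enhancers, and then a primed phase that resembles the epiblast after implantation. Nodal, a secreted ligand of the TGF-beta family, acts through activin receptors and Smad2 and Smad3 in the epiblast. Lefty1 and Lefty2 are secreted antagonists of Nodal that are themselves induced by Nodal signalling, which makes them a standard readout of that pathway.

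Lefty1 and Lefty2 are close paralogs that lie near each other on chromosome 1, so their sequences set how well 75-base reads tell them apart. Their coding sequences (GENCODE vM21, build GRCm38) have 1107 bases each and are identical at 1017 of these, or 91.9%, with no gap. Of the 1033 windows of 75 bases in the Lefty1 coding sequence, 173 (16.8%) also occur in that of Lefty2. A read that covers such a window cannot be assigned to either gene.

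The 75 coding bases in which the paralogs differ most run from base 51 to 125 in exon 1, at chr1:180935160-180935234 in Lefty1 and chr1:180893234-180893308 in Lefty2 (GRCm38, both on the + strand). Capitals mark the 23 positions that differ, and a read from this stretch belongs to 1 gene only.
Lefty1: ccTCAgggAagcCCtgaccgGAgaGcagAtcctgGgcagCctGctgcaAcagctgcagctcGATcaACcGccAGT
Lefty2: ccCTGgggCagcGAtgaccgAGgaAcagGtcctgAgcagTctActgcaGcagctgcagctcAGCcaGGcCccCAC

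Over whole transcripts, 11.7% of the 75-base windows of Lefty1 and 7.77% of those of Lefty2 occur in the other gene. Among the other markers, 6.81% of the windows of Pou3f1 occur in Gm2164 and 2.14% of those of Otx2 in Gm49154 or Otx2os1. Hesx1, Fgf5, Sox3, Zic2 and Nodal shared no such window with another annotated gene. How reads with several alignments were counted is not given in the sources used here.

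Levels are given as log2 RPKM (reads scaled to exon length and library size), in which 0 stands for 1 RPKM. The libraries held 24053996 to 30236823 reads. The cells carried the markers of their label: the summed level of 12 naive and core pluripotency genes lay between 2716 and 4994 RPKM in the 10 libraries, and that of 6 fibroblast genes did not exceed 1.05 RPKM. In each group 1 library had 4578 to 8140 reads in Y-linked genes and the other had 13 to 132, although all are labelled male. The library with few such reads was replicate 1 in 4 groups and replicate 2 in p20 Keniry2022. The study reports loss of the Y chromosome from a line of these male cells while it was being derived, ahead of the culture comparison. Whether the libraries with few Y-linked reads are those of that line was not tested. The p0 libraries also differed more from each other than other replicates did, with an SD of the replicate difference over tested features of 0.611 on the log2 scale against 0.230 to 0.265 in the 4 cultured groups, so results against p0 are given below with each p0 library removed where that matters.

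The 9 markers covered a wide range of expression. Nodal was the highest, with a mean of 5.34 log2 RPKM over the 10 libraries, which places it at the 94.2 percentile of all features, and Zic2 followed at 5.04. Lefty2 (4.10), Lefty1 (3.90) and Hesx1 (3.87) formed a middle group whose ranges overlapped one another. Pou3f1 (0.54) and Sox3 (0.35) were close to 1 RPKM with overlapping ranges. Otx2 (-0.92) stayed below 1 RPKM in all 10 libraries, as did Fgf5 (-2.84). Hesx1 varied most, over 2.21 log2 units from its lowest to its highest library, and Zic2 least, over 0.41.

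**Figure D1:**
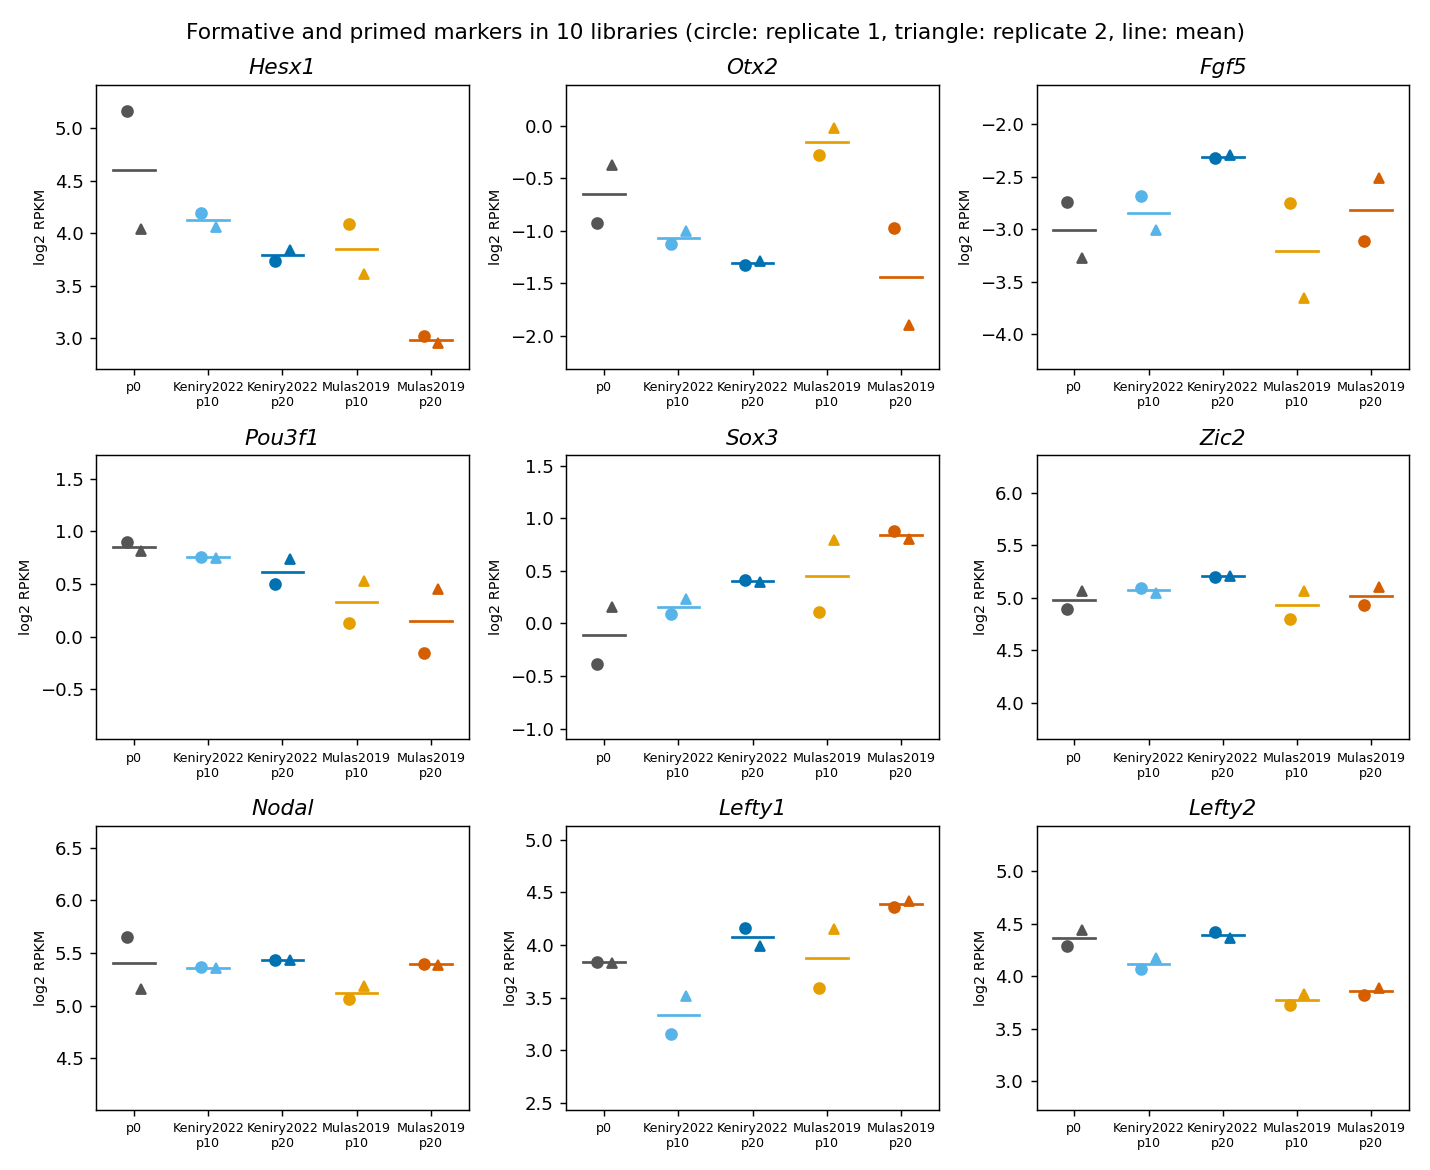
Level of each of the 9 markers (y axis, log2 RPKM) in the 2 libraries of each of the 5 groups (x axis), with replicate 1 as a circle, replicate 2 as a triangle and the mean as a line, and with y axes of equal span in all panels. Lefty2 lies lower in the 4 Mulas2019 libraries than in the 4 Keniry2022 libraries, Hesx1 is lowest in p20 Mulas2019, and Zic2 and Nodal span the smallest ranges.

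The first question is whether the culture method alters these markers. The 4 Keniry2022 libraries of p10 and p20 were compared with the 4 Mulas2019 libraries, as differences of Keniry2022 minus Mulas2019 on the log2 scale, with limma at a threshold of 0.05 for p-values adjusted over 11654 features (Benjamini-Hochberg). Features entered the test if they exceeded 0 log2 RPKM in at least 50% of the libraries, as 7 of the 9 markers did and Otx2 and Fgf5 did not. Lefty2 and Pou3f1 were higher under Keniry2022 and the other 5 tested markers did not pass. This count of 2 of 7 stands beside 51.5% of all features tested (25.9% higher and 25.5% lower), so as a group the markers passed no more often than the rest of the transcriptome. The median difference of the 7 markers was 0.16, against 0.00 for all features. The pooled fit took the 4 libraries of a method as independent, although they come from 2 lines. Its p-values therefore rest on fewer independent samples than n = 4. In bulk RNA, a change in the share of cells that express a gene cannot be told apart from a change in RNA per cell.

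Lefty2, the Nodal antagonist with the higher level in most libraries, lies at chr1:180893108-180899103. It measured 4.06 and 4.17 log2 RPKM in p10 Keniry2022 and 4.42 and 4.36 in p20 Keniry2022. In the Mulas2019 libraries it measured 3.72 and 3.83 at p10 and 3.83 and 3.89 at p20. Every Keniry2022 library was above every Mulas2019 library, which held for no other of the 9 markers and for 46.5% of all features tested. The means were 4.26 ± 0.166 (SD, n = 4) and 3.82 ± 0.069 (SD, n = 4), or 19.2 against 14.1 RPKM. The difference was 0.44 (SE 0.0764, limma adjusted p = 0.00108). The call held when any single library was left out, with differences from 0.38 to 0.50.

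Within single time points, Lefty2 was the only one of the 7 tested markers that was called. At p10 the difference was 0.34 (SE 0.0912) and did not pass (limma adjusted p = 0.0586), where 8.53% of features did and none of the 7 markers. At p20 it was 0.54 (limma adjusted p = 0.0326), the 1 marker of 7 called where 2.15% of features were. Between the groups matched in days, p20 Keniry2022 and p10 Mulas2019, it was 0.62 (limma adjusted p = 0.0161), again the 1 marker of 7, with 6.43% of features called. The p20 call was lost when any 1 of the 8 cultured libraries was left out (limma adjusted p from 0.0756 to 0.300), and the call matched in days when any 1 of the 4 libraries compared was (0.0741 to 0.167). The size of the Lefty2 difference stayed between 0.50 and 0.67 in both comparisons over all settings. Matched in days, the difference was 0.31 for Nodal, 0.29 for Pou3f1, 0.27 for Zic2, 0.21 for Lefty1, -0.05 for Sox3 and -0.06 for Hesx1. In the pooled comparison and at equal passage the methods also differ in days of culture, so these cannot be told apart.

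Lefty1, the paralog, did not follow Lefty2. It lies at chr1:180935022-180938400 and measured 3.15 and 3.51 log2 RPKM in p10 Keniry2022, 4.17 and 3.99 in p20 Keniry2022, 3.59 and 4.16 in p10 Mulas2019 and 4.36 and 4.41 in p20 Mulas2019. It was lowest in p10 Keniry2022 and highest in p20 Mulas2019, and the libraries of the methods overlapped. The pooled difference was -0.43 (SE 0.231, 95% interval -0.94 to 0.09, limma adjusted p = 0.148). It stayed uncalled under 14 of 17 alternatives and passed under 3. Matched in days the difference was 0.21.

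Within each library, Lefty1 minus Lefty2 compares the paralogs on the log2 scale per length. It was -0.91 and -0.66 in p10 Keniry2022, -0.26 and -0.37 in p20 Keniry2022, and -0.44 and -0.61 at p0. It was -0.13 and 0.32 in p10 Mulas2019 and 0.54 and 0.53 in p20 Mulas2019. Lefty2 was therefore the higher paralog at p0 and in every Keniry2022 library, and Lefty1 in 3 of 4 Mulas2019 libraries. The means were -0.55 ± 0.296 (SD, n = 4) for Keniry2022 and 0.31 ± 0.312 (SD, n = 4) for Mulas2019, a difference of -0.86, which lay between -1.01 and -0.74 with any 1 library left out. This measure was chosen after the values of both genes had been seen and the 4 libraries of a method come from 2 lines, so it is given as a description with no test.

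**Figure D2:**
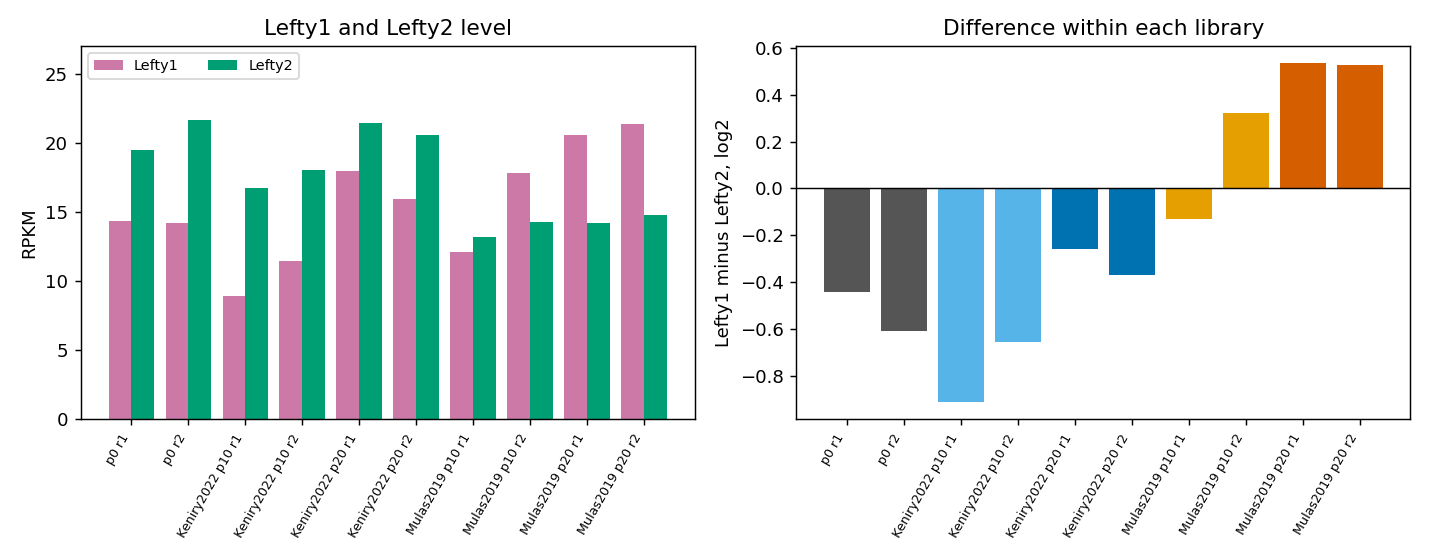
Left, RPKM (y axis) of Lefty1 and Lefty2 as bars in each of the 10 libraries (x axis). Right, Lefty1 minus Lefty2 on the log2 scale in the same libraries, negative in both p0 and all 4 Keniry2022 libraries and positive in 3 of 4 Mulas2019 libraries.

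Nodal, the ligand that both Lefty proteins inhibit, was among the steadiest markers. It lies at chr10:61417972-61425338 and measured 5.36 and 5.35 log2 RPKM in p10 Keniry2022, 5.43 and 5.43 in p20 Keniry2022, 5.06 and 5.18 in p10 Mulas2019 and 5.40 and 5.38 in p20 Mulas2019. The p10 Mulas2019 libraries were the lowest of the 8, and at p20 the methods were 0.04 apart. The pooled difference was 0.14 (95% interval -0.02 to 0.30, limma adjusted p = 0.124). It stayed uncalled under 16 of 17 alternatives and passed with passage as a term (limma adjusted p = 0.0297).

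Pou3f1 (Oct6), a POU-domain transcription factor of the primed epiblast and of neural lineages, was higher under Keniry2022. It lies at chr4:124657646-124660655 and measured 0.76 and 0.75 log2 RPKM in p10 Keniry2022 and 0.50 and 0.74 in p20 Keniry2022, from 119 to 148 reads. In the Mulas2019 libraries it measured 0.13 and 0.53 at p10 and -0.15 and 0.45 at p20, from 75 to 131 reads. The ranges overlapped by 1 library on either side. The means were 0.68 ± 0.126 (SD, n = 4) and 0.24 ± 0.312 (SD, n = 4), and the difference was 0.45 (SE 0.155, limma adjusted p = 0.0345). The call was lost when either p10 Keniry2022 library, p20 Keniry2022 replicate 2, p10 Mulas2019 replicate 1 or p20 Mulas2019 replicate 1 was left out (limma adjusted p from 0.0728 to 0.0799). It did not pass at either passage alone, with differences of 0.42 at p10 and 0.47 at p20 (limma adjusted p = 0.280 and 0.319).

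Hesx1, a homeobox repressor of the epiblast and later of the anterior neural plate and pituitary, had the widest spread of the 7 tested markers under Mulas2019. It lies at chr14:27000362-27002329 and measured 4.20 and 4.06 log2 RPKM in p10 Keniry2022, 3.74 and 3.84 in p20 Keniry2022, 4.08 and 3.61 in p10 Mulas2019 and 3.02 and 2.96 in p20 Mulas2019. Both p20 Mulas2019 libraries were below all other libraries, and at p10 the methods overlapped. The pooled difference was 0.54 (SE 0.223, limma adjusted p = 0.0652), and at p20 alone it was 0.80 (limma adjusted p = 0.227). Neither passed the threshold in these fits, and matched in days the difference was -0.06. The pooled difference stayed uncalled under 14 of 17 alternatives. It passed with passage as a term (limma adjusted p = 0.00473), with library quality weights (0.0160) and without p10 Mulas2019 replicate 1 (0.00417). With the weights the p20 difference passed as well (limma adjusted p = 0.00216), where 4079 of 11561 features did.

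Zic2, a zinc-finger factor bound at enhancers of the primed state, was high in every library. It lies at chr14:122475435-122479852 and measured 5.09 and 5.05 log2 RPKM in p10 Keniry2022, 5.20 and 5.21 in p20 Keniry2022, 4.80 and 5.06 in p10 Mulas2019 and 4.93 and 5.10 in p20 Mulas2019. The pooled difference was 0.16 (95% interval 0.01 to 0.32, limma adjusted p = 0.0663), and the methods overlapped. It stayed uncalled under 14 of 17 alternatives and passed under 3.

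Sox3, an X-linked SoxB1 factor of the epiblast and neural progenitors, had a difference of the opposite sign that did not pass. It lies at chrX:60891370-60893430 and measured 0.09 and 0.23 log2 RPKM in p10 Keniry2022, 0.41 and 0.40 in p20 Keniry2022, 0.11 and 0.79 in p10 Mulas2019 and 0.88 and 0.81 in p20 Mulas2019. Of the 4 Mulas2019 libraries, 3 were above all Keniry2022 libraries. The pooled difference was -0.36 (95% interval -0.75 to 0.02, limma adjusted p = 0.102), from 54 to 108 reads per library. It passed under 2 of 16 alternatives. Matched in days the difference was -0.05.

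Otx2, a homeobox factor at the head of the formative programme, was low throughout, with 25 to 101 reads per library. It lies at chr14:48657679-48667644 and measured -1.13 and -1.0 log2 RPKM in p10 Keniry2022, -1.33 and -1.29 in p20 Keniry2022, -0.28 and -0.02 in p10 Mulas2019 and -0.97 and -1.90 in p20 Mulas2019. The p10 Mulas2019 libraries were the highest of all 10 and those of p20 Mulas2019 ranged from above to below the Keniry2022 values. In the fit with no filter on low values, where 24.2% of 25965 features were called, the pooled difference was -0.39 (limma adjusted p = 0.545). In that fit the difference at p10 was -0.91 (95% interval -1.67 to -0.16, limma adjusted p = 0.179) and did not pass.

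Fgf5, a secreted growth factor of the epiblast after implantation, was nearly silent. It lies at chr5:98254184-98277030 and its reads numbered 9 and 7 at p0, 11 and 9 in p10 Keniry2022, 14 and 15 in p20 Keniry2022, 9 and 6 in p10 Mulas2019 and 8 and 12 in p20 Mulas2019. The lowest count of 6 has an exact Poisson 95% interval of 2.20 to 13.1 reads and the highest of 15 one of 8.40 to 24.7, which overlap, and these intervals cover counting error only. Its log2 RPKM lay between -3.66 and -2.30. A difference between the methods was not detectable at this depth (0.43 in the fit with no filter, 95% interval -0.19 to 1.06, limma adjusted p = 0.345).

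**Figure D3:**
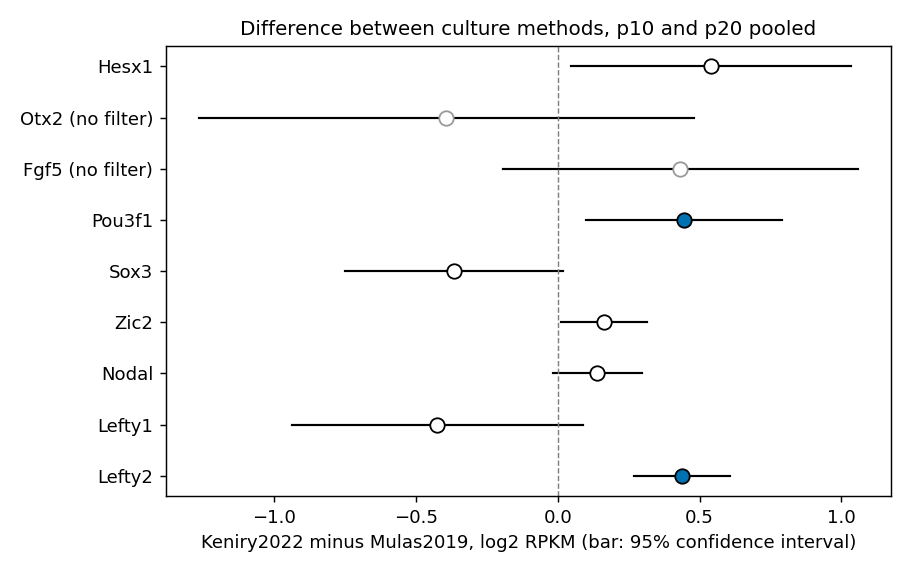
Difference between the methods for each of the 9 markers, as Keniry2022 minus Mulas2019 in log2 RPKM with its 95% confidence interval (x axis), for p10 and p20 pooled (n = 4 libraries per method). Filled points passed the adjusted threshold of 0.05 (Pou3f1 and Lefty2), and Otx2 and Fgf5 come from the fit with no filter on low values.

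Whether the effect of the method itself changed between p10 and p20 was tested by an interaction term. None of the 7 markers passed and nor did any feature (0% of 11561 in limma, with 405 features and none of the markers at an unadjusted p under 0.05). The interaction estimate was 0.52 for Hesx1, -0.20 for Nodal and 0.20 for Lefty2, and the limma adjusted p was above 0.99 for each.

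The comparisons against p0 ask how the markers moved from the starting cells, and all 4 of them share the same p0 libraries. Under Keniry2022, none of the 7 markers was called at p10 (0.199% of features called) or at p20 (0.199%). At an unadjusted p under 0.05 there were 2 markers at p10, Lefty1 (-0.50) and Lefty2 (-0.24), and 1 at p20, Hesx1 (-0.82). Under Mulas2019, 1 marker was called at p10 (33% of features) and 3 at p20 (29.3%). The size of the differences depended on the p0 library across all features. With both p0 libraries the median absolute difference over all features was 0.23 and 0.24 under Keniry2022 (p10 and p20). Under Mulas2019 it was 0.33 and 0.33. Without p0 replicate 2 these values were 0.38 and 0.40, and 0.48 and 0.48. Without p0 replicate 1 they were 0.13 and 0.13, and 0.23 and 0.21. Such a fit has 1 p0 library, so no counts are given for it.

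Lefty2 measured 4.28 and 4.44 log2 RPKM at p0, above all 4 Mulas2019 libraries. It fell by 0.58 at p10 Mulas2019 (SE 0.0912, limma adjusted p = 0.0100) and by 0.50 at p20 Mulas2019 (limma adjusted p = 0.0153). The corresponding values under Keniry2022 were -0.24 at p10 and 0.03 at p20 (limma adjusted p = 0.178 and 0.814). The Mulas2019 calls were lost without either library of the passage tested, with limma adjusted p of 0.0572 and 0.0893 at p10 and of 0.0911 and 0.114 at p20.

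Hesx1 measured 5.16 and 4.04 log2 RPKM at p0, a gap of more than 1 log2 unit between the replicates. It fell by 1.62 at p20 Mulas2019 (SE 0.319, limma adjusted p = 0.0174), from a mean of 26.1 to 7.93 RPKM. The drop was 1.05 without p0 replicate 1 and 2.18 without p0 replicate 2. The call was lost without either p20 Mulas2019 library. At p10 Mulas2019 the value was -0.76 (limma adjusted p = 0.0966) and at p20 Keniry2022 it was -0.82 (limma adjusted p = 0.162). Without p0 replicate 2 the values were -1.32 at p10 Mulas2019, -1.38 at p20 Keniry2022 and -1.04 at p10 Keniry2022. At p10 Keniry2022 the value with both p0 libraries was -0.48. A fit with 1 p0 library holds no spread between p0 libraries, so no p-value is given for it.

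Sox3 measured -0.38 and 0.15 log2 RPKM at p0, the lowest group mean of the 5. It rose by 0.96 at p20 Mulas2019 (SE 0.259, limma adjusted p = 0.0335), from 38 and 62 reads at p0 to 105 and 99. This call was lost in 7 of 10 removals of a single library (limma adjusted p from 0.0602 to 0.154), which were p0 replicate 1 (0.69), each Keniry2022 library and each p20 Mulas2019 library. At p20 Keniry2022 the value was 0.52 (limma adjusted p = 0.210). Without p0 replicate 2 it was 0.79 there and 0.84 at p10 Mulas2019, where it was 0.57 with both p0 libraries.

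The other tested markers did not pass against p0 in the fit of all 10 libraries with no block, weights or further normalization. Pou3f1 measured 0.90 and 0.81 log2 RPKM at p0 and was 0.71 lower on average at p20 Mulas2019 (limma adjusted p = 0.0513). Lefty1 measured 3.84 and 3.83 at p0, with a value of 0.55 at p20 Mulas2019 (limma adjusted p = 0.0581). Both passed at p20 Mulas2019 under some alternatives, among them quantile normalization (limma adjusted p = 0.0241 for Pou3f1 and 0.0491 for Lefty1). Pou3f1 also passed with median centring (limma adjusted p = 0.0427) and with the replicate number as a block (0.0439). Lefty1 also passed with a block in which the p20 Keniry2022 numbers are exchanged (limma adjusted p = 0.0399). Without p0 replicate 2 the values were -0.75 for Pou3f1 and 0.55 for Lefty1. Zic2 measured 4.90 and 5.07 at p0. Nodal measured 5.66 and 5.16 at p0, and its direction at p20 Keniry2022 depended on the p0 library. The value there was 0.28 without replicate 1 and -0.22 without replicate 2, against 0.03 with both. Otx2 measured -0.93 and -0.37 and Fgf5 -2.74 and -3.27.

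Between p10 and p20 within a method, no marker was called and no feature (0% under Keniry2022 and 0% under Mulas2019 in limma). At an unadjusted p under 0.05 there were 289 features under Keniry2022, Lefty1 (0.75) and Lefty2 (0.27) among them, and 772 under Mulas2019, Hesx1 (-0.86) and Lefty1 (0.51) among them. Lefty1 thus had its higher values at p20 in both methods without passing the adjusted test.

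**Figure D4:**
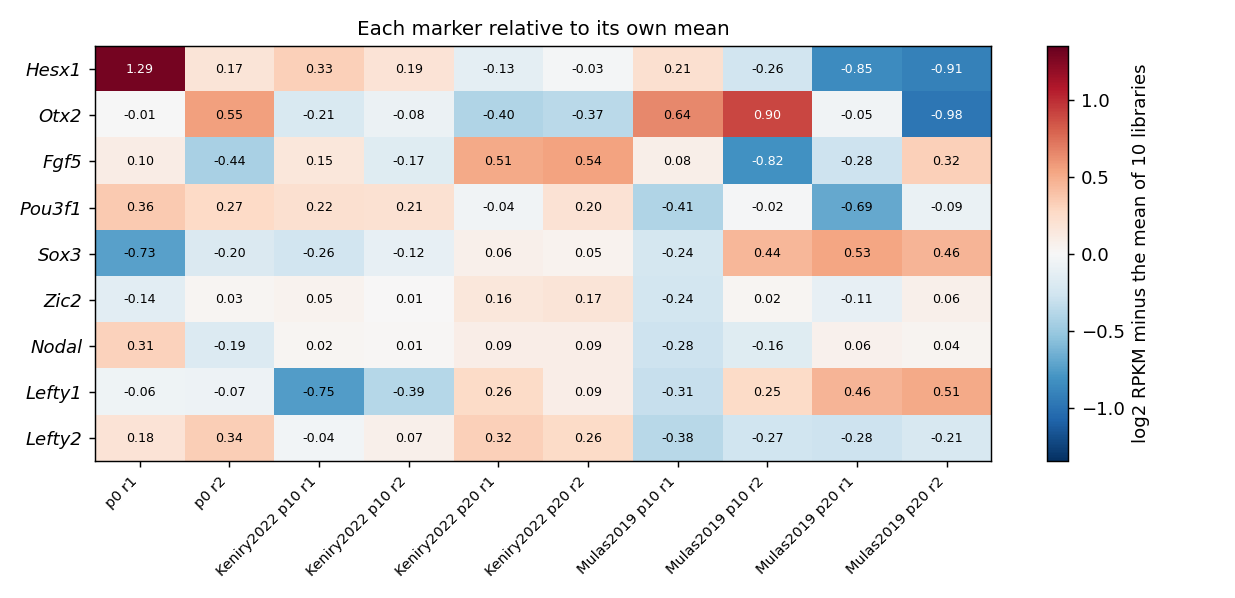
Each marker (rows) in each of the 10 libraries (columns) as log2 RPKM minus the mean of that marker over the libraries, on a colour scale centred on 0 with the value printed in each cell. The p0 library of replicate 1 has the highest Hesx1 (1.29) and the lowest Sox3 (-0.73), and the Lefty2 row is negative in all 4 Mulas2019 columns.

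The markers did not move as 1 block across the libraries. Of the 36 pairs of markers, Hesx1 and Sox3 had the lowest Pearson r over the 10 libraries (-0.957) and Pou3f1 and Lefty2 the highest (0.705), while Lefty1 and Lefty2 had -0.117. These values describe 10 libraries that share lines, groups and starting cells. By the same measure, the features most like Hesx1 among 11561 were Gm5786, Itpka and Vrk1 (r from 0.969 to 0.972), those most like Sox3 were Kazn, Gm16039 and 2510009E07Rik (0.950 to 0.962), and those most like Lefty2 were Pdia6, Pvrl3 and Otud6b (0.928 to 0.944). Nodal was most like Ptplb, Fam100a and Mfsd10 (0.954 to 0.976) and Lefty1 like Olfml1, Maged1 and Oat (0.887 to 0.919). Pou3f1 was most like 2410127L17Rik, Nppb and Zcchc9 (0.907 to 0.929), and Metap1 (0.896) and Ehhadh (0.894) were among the 3 most like Zic2.

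The rest of the Nodal pathway was examined in the pooled comparison of the methods. Of 10 ligands, co-receptors, receptors and convertases, 7 were tested, 1 was higher and 3 were lower in Keniry2022 cells (median difference -0.08, against 0.00 for all features). These 4 calls of 7 stand beside 51.5% of all features called (25.9% higher and 25.5% lower). Acvr1b, a type I activin receptor that carries the Nodal signal, was lower (3.0 against 3.52 log2 RPKM, difference -0.52, limma adjusted p = 3.56e-05), as were Acvr2b, a type II activin receptor (-0.18), and Furin, a convertase that matures the Nodal precursor (-0.21). Gdf3, a related ligand, was higher (0.15). The co-receptor Tdgf1 (Cripto) measured 8.89 against 8.84 log2 RPKM, and Acvr1c had 0 reads in all 10 libraries.

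Of 12 genes of signal transduction, targets and inhibitors, 11 were tested, 2 were higher and 5 were lower in Keniry2022 cells (median difference -0.10). These 7 calls of 11 stand beside the same 51.5%. Smad3, a transducer of the signal, was lower (-0.41), as were Skil (-0.46) and Ski (-0.19), which repress Smad-driven transcription, and Dand5, a secreted Nodal antagonist (-0.44). The corepressor Tgif1 was higher (0.26, limma adjusted p = 0.000462), as was the inhibitory Smad7 (0.15). Smad2 (0.07) and Foxh1 (0.02), which also carry the signal, did not pass, and the antagonist Cer1 had 0 reads in all libraries.

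Few relatives of the markers were expressed. Of 14 family members, 4 were above the filter. Fgf4, the main FGF of naive cells, measured 6.73 against 6.65 and Sox2, the SoxB1 relative of Sox3, 7.59 against 7.71, and neither passed. Otx1, Crx, Sox1, Pou3f2, Pou3f3, Pou3f4, Zic1, Zic4, Fgf8 and Fgf15 were not tested.

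Among 20 other genes of the formative and primed states, 16 were tested, 10 were higher and 2 lower in Keniry2022 cells (median difference 0.28). The called share in the higher direction stands beside 25.9% of all features. Dnmt3b, a de novo DNA methyltransferase, was higher by 0.78 (5.12 against 4.34 log2 RPKM, limma adjusted p = 0.000100), Utf1, a chromatin-associated factor of pluripotent cells, by 0.98 (limma adjusted p = 0.000270) and Etv5, an ETS factor downstream of FGF signalling, by 0.29 (limma adjusted p = 0.000379). Sox12 (-0.35) and Lin28b (-0.26) were lower.

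The summed levels of markers of other cell types differed between the methods for some lists. The summed level of 7 trophoblast genes was 26.4 to 29.8 RPKM in the Keniry2022 libraries and 30.9 to 38.3 in the Mulas2019 libraries, with 4 of the 7 below 1 RPKM on average. That of 8 extraembryonic endoderm genes was 5.26 to 6.12 against 7.77 to 8.86 RPKM, with 7 of the 8 below 1 RPKM. That of 6 neuroectoderm genes was 4.57 to 5.61 against 5.70 to 7.89 RPKM, with 5 of the 6 below 1 RPKM, and that of 8 primitive streak genes was 6.59 to 7.88 against 5.96 to 7.41 RPKM. In the pooled test, Col4a1 (-0.69), Nes (-0.42), Eomes (-0.40) and Tfap2c (-0.33) were lower under Keniry2022 and Gsc (0.36) was higher. Their part in the Lefty2 and Pou3f1 differences was not tested.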

How the data were processed

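The deposited table holds log2 values that the authors named log CPM and described as RPM. The values are log2 RPKM, with 0 reads entered as 0.9 reads, so whole reads per marker could be worked out (deviation at most 0.00100 reads). Per the study, 75-base single-end reads were trimmed, aligned to mm10 with HISAT2 and quantified in SeqMonk, whereas the submitters' processing notes name TopHat2 2.0.12. The strand setting and the annotation release were not given in the sources used here. Tests used limma 3.58.1 in R 4.3.3 (eBayes with an intensity trend, two-sided, Benjamini-Hochberg over all features tested, threshold 0.05) in place of the authors' voom fit, because only log2 values were used. The pooled comparison of the methods used 8 libraries, and every other comparison a model of 10 libraries in 5 groups. The replicate numbers were not taken to pair the samples, since the deviations of p20 Keniry2022 correlated negatively (-0.698 to -0.118) with those of same-numbered libraries in the other groups, which correlated at 0.171 to 0.630 with one another. All 9 markers are named, with the 3 genes of smallest adjusted p from each gene list (further list members were named after their values were seen) and the 3 features of highest Pearson r with each tested marker. A few genes that this rule names, and 1 sequence, are not reported here. The members and lists were chosen with earlier results of these data known. The alternatives tried were other filters, centring, quantile normalization, library weights, passage as a term, replicate blocks and the removal of each library.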

Additional observations from a re-analysis of the deposited data

Results flagged for a closer look

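Among the 4 libraries of each method, Pou3f1 in p20 Keniry2022 replicate 1 (0.50 log2 RPKM) lay far below the other 3 Keniry2022 libraries (0.74 to 0.76), and Sox3 in p10 Mulas2019 replicate 1 (0.11) far below the other 3 Mulas2019 libraries (0.79 to 0.88). The rule was run on all 9 markers in each method, and chance alone marks about 1 in 20 such groups of libraries. Without the first library the Pou3f1 difference between the methods was 0.51 and without the second the Sox3 difference was -0.54. Both libraries were picked out by these same values, so no p-value is given for their removal.

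Otx2 moved in opposite directions from p0 to p10, with both Keniry2022 libraries below and both Mulas2019 libraries above the p0 libraries. The gap was -0.91 on the log2 scale. This pattern was picked out by a search over all markers and several pairs of comparisons. Its share over all features was not counted, so nothing is read from it about Otx2. In the fit with no filter on low values the gap did not pass (limma adjusted p = 0.179). The read counts behind it were 43 and 71 at p0, 44 and 49 in p10 Keniry2022 and 68 and 101 in p10 Mulas2019.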

How the results depend on the processing

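No alternative reversed the direction of a marker called or reported in the pooled comparison. Of the 7 tested markers, 2 were called between the methods pooled, beside 6000 of 11654 features. The count was 1 with no filter on low values, beside 6281 of 25965 features. It was 1 with a filter above 2 log2 RPKM (which leaves 5 markers), beside 4663 of 8537. In the model of 10 libraries it was 1, beside 2225 of 11561. It was 5 with library quality weights, beside 6353 of 11654, and 6 with passage as a term, beside 6395. With single libraries left out of the pooled comparison the count was 1 to 4, beside 5049 to 5659 features called. It was 1 without either p10 Keniry2022 library, p20 Keniry2022 replicate 2 or p20 Mulas2019 replicate 1. It was 4 without p10 Mulas2019 replicate 1, beside 5577 of 11506 features. With library quality weights, 3 markers were called at p10, 2 at p20 and 3 in the groups matched in days. Beside them, 5880, 4079 and 4623 of 11561 features were called, against 986, 249 and 743 without weights. For p10 and p20 Mulas2019 against p0 the weighted fit called 0 markers and 0 features. For p20 against p10 in Mulas2019 it called 2 markers, beside 512 features. In the 10-library model, counts also changed with single libraries left out, for the markers and for all features. Such a removal leaves 1 library in its group, so these counts are not given. The highest counts against p0 came without p0 replicate 2, and those of the comparisons between cultured groups in the 10-library model without either p0 library. The cause was not tested, beyond the fewer libraries that a removal leaves, where a lone library is assumed to vary like the other groups.

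With the replicate block, 2 markers were called between the methods pooled, beside 5749 of 11654 features. At p20 and in the groups matched in days 1 marker each was called, beside 145 and 511 of 11561 features. Against p0, 1 and 4 were called for Mulas2019 p10 and p20, beside 3575 and 3136 features. The other comparisons called 0 markers. A block with the p20 Keniry2022 numbers exchanged, chosen after seeing the data, called 1 marker at p10 (Lefty2, limma adjusted p = 0.0498). Beside it, 778 of 11561 features were called. For Mulas2019 p20 against p0 this block called 4 markers, beside 2990 features. Lefty1 (0.55, limma adjusted p = 0.0399) was the added one. The Lefty2 difference between the methods pooled held under all 17 alternatives (0.38 to 0.50), the Pou3f1 call was lost in 7 of 16, the Hesx1 call at p20 Mulas2019 against p0 in 3 of 17 and the Sox3 call there in 10 of 16. Read counts were low for Fgf5, with at most 15 reads, and for Otx2, with at most 101, and both lay below the filter in all libraries.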

Other observations

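The naive and core pluripotency genes were all well expressed, and 5 of the 12 were higher and 1 was lower under Keniry2022 in the pooled comparison (median 0.07). This share is close to the 51.5% of all features called there, so nothing is read from it about these genes as a group. Pou5f1 (Oct4), required for pluripotency, measured 8.74 against 8.34 log2 RPKM (difference 0.40, limma adjusted p = 0.000192) and Zfp42 (Rex1), a classical naive marker, 5.90 against 5.60 (0.30, limma adjusted p = 0.000188). Klf4, a naive factor downstream of LIF, was the 1 lower gene (-0.40, limma adjusted p = 0.00365). No gene of the fibroblast or 2-cell-like lists was above the filter.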
